A study of Homo sapiens with 6 samples.

Results

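The genes described here encode extracellular proteases, the inhibitors that hold them in check, and serpins. They were taken by symbol from the protein-coding genes of the deposited table: matrix metalloproteinases (MMP), their tissue inhibitors (TIMP), ADAM, ADAMTS and ADAMTS-like genes, serpins, the plasminogen activators PLAU and PLAT with the receptor PLAUR, and the PRSS, HTRA, DPP, cystatin, SPINT, TFPI and A2M families. ADAMTS2, ADAMTS3, ADAMTS14, SERPINF1, SERPINH1 and SERPING1 were set aside by the same rule. The rule selected 57 of the 7758 listed genes, against 165 protein-coding genes that it selects in the GENCODE release 29 annotation. The other annotated genes, among them MMP1, MMP2, TIMP1 and ADAM17, were not in the table as given and were not analysed here.

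RNA was sequenced from ARPE-19 cells, an immortal human retinal pigment epithelium (RPE) line, infected with lentivirus that carried a hairpin against METTL3 (sh-METTL3) or a scramble hairpin (sh-Control). METTL3 is the catalytic subunit of the complex that places N6-methyladenosine (m6A) on mRNA. Cells of both groups had received lipopolysaccharide (LPS) at 1 μg/ml for 24 h, so the comparison asks what silencing METTL3 changes in LPS-stimulated cells, and unstimulated cells were not part of it. Each group had 3 libraries, the infected cells had been drug-selected as stable strains, and p-values measure the spread between these libraries, which the labels do not tie to separate infections. The study gave the table as read counts divided by a size factor for each library (scaled counts below), only for genes its own test had already called. Between 10898434 and 17750052 reads per library fell on the listed genes. METTL3 itself had scaled counts of 1154, 1108 and 1091 in the control libraries and of 966, 1001 and 765 in the sh-METTL3 libraries, a difference of -0.30 on the log2 scale (SE 0.0965, adjusted p = 0.032 by limma) that did not pass with TMM factors (adjusted p = 0.0573 by edgeR) or RLE factors (adjusted p = 0.261 by edgeR). Further limma fits that lost its call were those with a constant prior variance (adjusted p = 0.12) and those without control replicate 1, 2 or 3 (adjusted p = 0.124, 0.0958 and 0.0684), and without sh-METTL3 replicate 3 its log2 fold change was -0.18. The study reported less METTL3 protein and less m6A in its METTL3-silenced ARPE19 cells, neither of which RNA counts measure. Of 16 markers of RPE cells 7 were listed, KRT8, KRT18, MITF, RDH5 and LRAT higher and PMEL and BEST1 lower in sh-METTL3. RPE65, RLBP1, TYR and the other markers were not in the table and the label could not be checked against them.

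MMPs, ADAMs and ADAMTS enzymes are zinc proteases that cut matrix proteins and shed membrane proteins from the cell surface, and TIMPs block their active site. The plasminogen activators convert plasminogen to plasmin, a broad serine protease, and serpins trap serine proteases in a permanent complex. In the eye the RPE secretes both enzymes and inhibitors towards Bruch's membrane, the matrix sheet beneath it, where TIMP3 is a resident protein and HTRA1 a locus linked to macular degeneration.

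All 57 genes were past the 0.05 limit on limma's adjusted p, 36 lower and 21 higher in the METTL3-silenced cells. Over all listed genes 97.9% passed, 51.3% lower and 46.6% higher, since the table holds genes already selected on these libraries, so the count of passing members carries no information of its own. The median log2 fold change was -0.62 over the 57 genes and -0.21 over all listed genes. A difference of at least a doubling or halving was found for 25 of the 57 genes, 18 lower and 7 higher, against 30.5% of all listed genes (1017 lower and 1352 higher). Among the 6740 listed protein-coding genes, the kind from which the set was drawn, 25.1% changed that much (849 lower and 845 higher), 56.3% of those that passed were lower, and the median log2 fold change was -0.25. The scaled counts of the groups did not overlap for 56 of the 57, against 98.5% of all listed genes. The exception was PRSS12, a neuronal serine protease, with a log2 fold change of -0.29 (limma, adjusted p = 0.0294), which passed in 8 of 15 other fits, with an adjusted p of up to 0.292. Fold changes are given as the ratio of group means, and log2 fold changes are the coefficients of limma on log2(scaled count + 1), which understates the change of genes with few reads. In bulk libraries fewer cells that express a gene and less RNA of it per cell cannot be told apart.

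**Figure D1:**
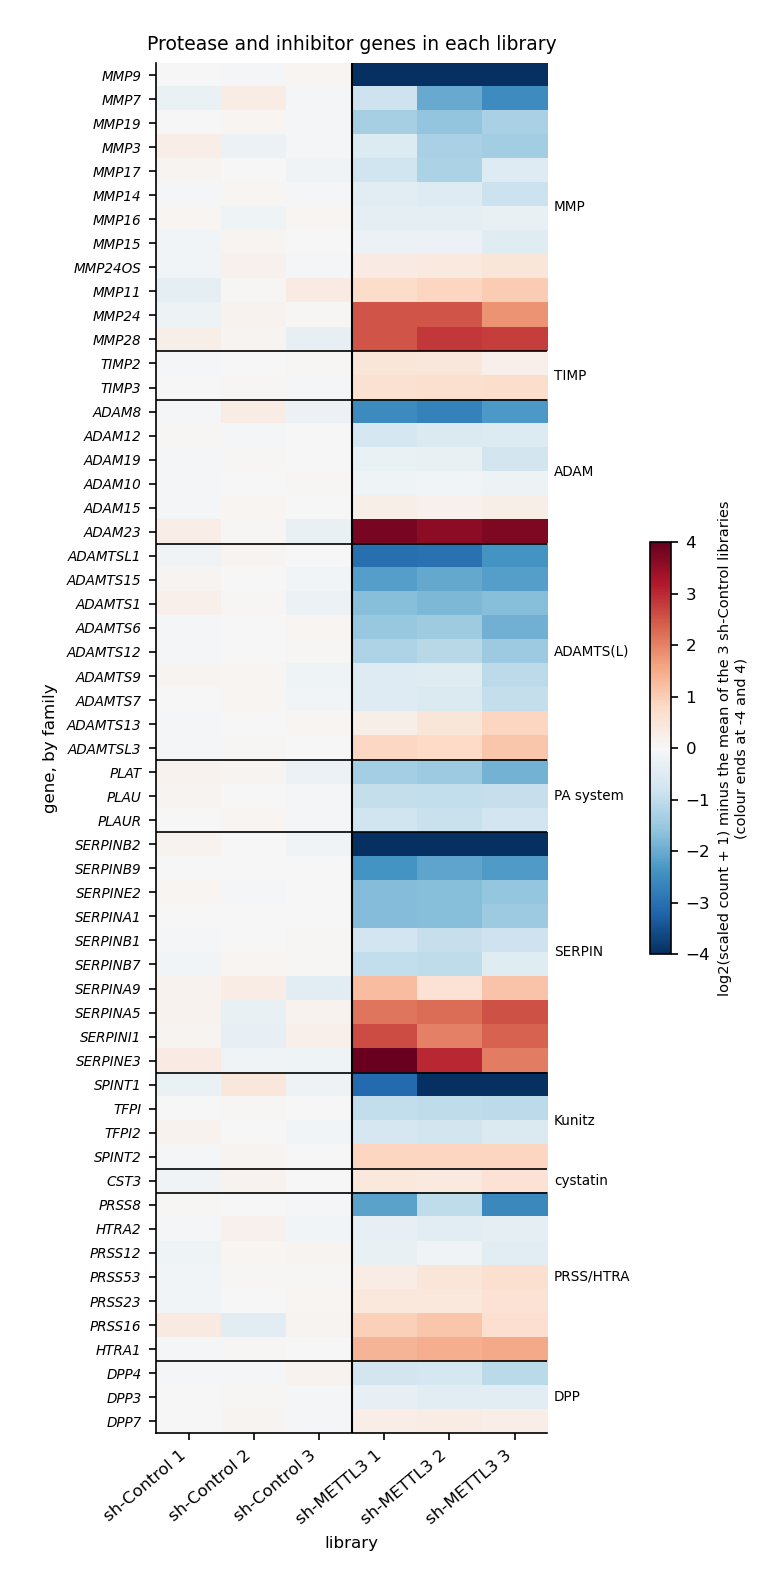
Heat map of the 57 genes (rows, grouped by family) in the 6 libraries (columns). Colour gives log2(scaled count + 1) minus the mean of the 3 sh-Control libraries, blue for lower and red for higher, with the colour scale ending at -4 and 4. The 3 sh-METTL3 columns share the direction of change in almost every row, with 36 rows lower and 21 higher by the fitted value.

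Counts by family are given here as a description, and no difference between families was tested. Of 11 listed MMP genes 8 were lower (median log2 fold change -0.62), and the opposite-strand gene MMP24OS, which its symbol brought into the set, was higher. Also lower were 4 of 6 ADAM genes (median -0.30) and 7 of 9 ADAMTS and ADAMTS-like genes (median -1.27). Both listed TIMPs and the only listed cystatin were higher. PLAU, PLAT and PLAUR were all lower. Among 10 serpins 6 were lower and 4 higher, and 3 of 4 Kunitz inhibitors were lower. The PRSS and HTRA genes went both ways, 4 higher and 3 lower, and of 3 DPP peptidases 2 were lower. Taking the 17 members of the inhibitor families together, 9 were lower and 8 higher (median -0.66). That is 52.9% lower, beside 56.3% of the listed protein-coding genes that passed. Of 36 genes that encode proteases or protease-like proteins 25, or 69.4%, were lower (median -0.53), and the 4 genes in neither class were ADAMTSL1, ADAMTSL3, PLAUR and MMP24OS.

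**Figure D2:**
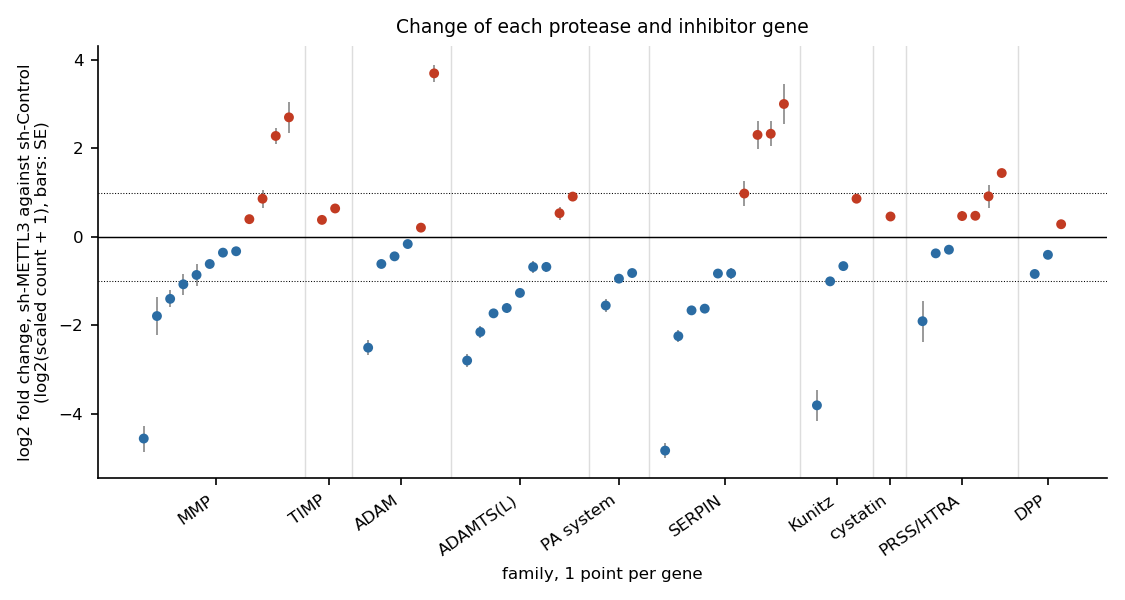
Log2 fold change (vertical axis, sh-METTL3 against sh-Control) of each gene with its standard error (bars), grouped by family along the horizontal axis. Blue points are lower and red points higher in sh-METTL3, and dotted lines mark a doubling and a halving. The 3 genes of the plasminogen activator (PA) system all lie below 0 and both TIMPs above it, while serpins spread from -4.84 to 3.0.

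By level per length of exon, MMP14 stood first among the 57 genes in both groups. MMP14, the membrane-anchored collagenase that also activates proMMP2, averaged 9098 scaled counts per kb in control and 5974 in METTL3-silenced cells. PRSS23, a secreted serine protease, came second in both groups with 1605 and 2232 per kb. ADAM15, CST3, DPP7 and TIMP2 followed in the control cells with 1441, 1342, 1295 and 1292 per kb. In the METTL3-silenced cells the order behind PRSS23 was CST3, TIMP2 and ADAM15 with 1846, 1690 and 1661 per kb. ADAMTS1 moved from rank 14 (547 per kb) to rank 27 (163 per kb). At the other end MMP28, SERPINA5, SERPINE3, SERPINI1, PRSS8 and ADAM23 had fewer than 5 scaled counts per kb in the control cells. Of these ADAM23 had the most reads, 37, 26 and 21 in the controls and 376, 232 and 301 in sh-METTL3.

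**Figure D3:**
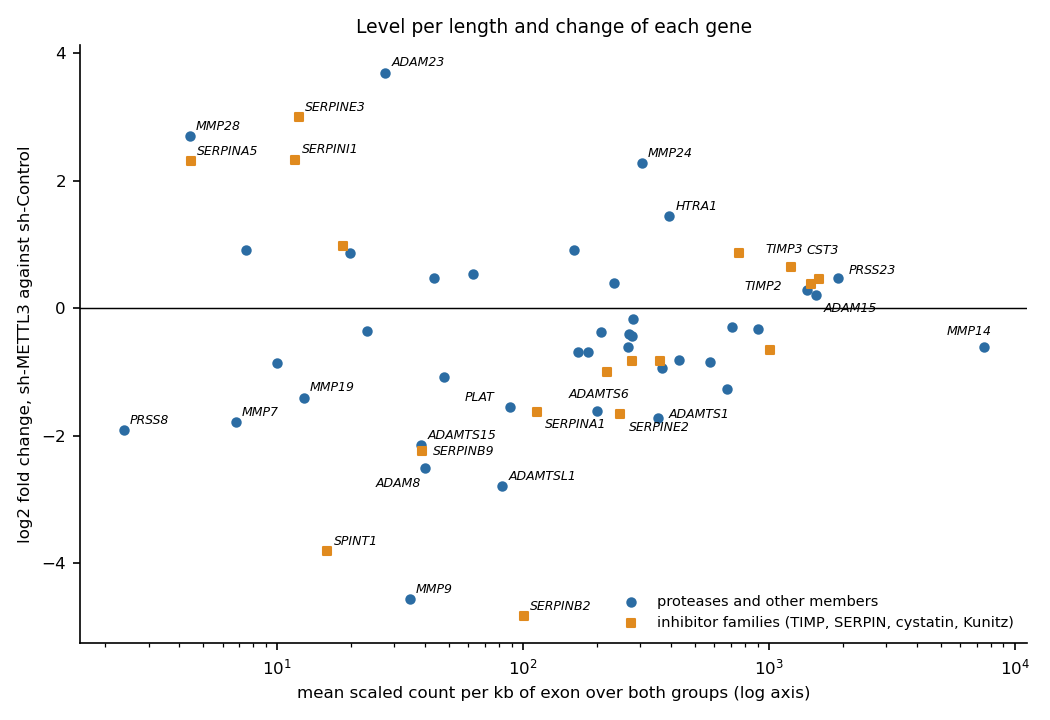
Mean scaled count per kb of exon over both groups (horizontal log axis) against the log2 fold change (vertical axis) for each gene. Circles are proteases and other members, squares the inhibitor families. The 4 highest-ranked inhibitor points at the right, TIMP2, TIMP3, CST3 and TFPI2, are higher in sh-METTL3 except TFPI2, and MMP14 is lower.

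Among the metalloproteinases the abundant MMP14 (ENSG00000157227, GRCh38 chr14:22836557-22849027) held 39564, 42632 and 39641 scaled counts in the control libraries and 29406, 28120 and 22472 in the sh-METTL3 libraries. All sh-METTL3 libraries lay below the controls, replicate 3 lowest. The fall was 1.52-fold, with a log2 fold change of -0.62 (SE 0.0988, adjusted p = 0.000762 by limma). MMP9, the gelatinase that degrades denatured collagen and type IV collagen, was nearly lost. Its scaled counts were 156, 149 and 163 in the controls and 3.73, 5.15 and 8.96 in sh-METTL3, a 26.2-fold lower mean (log2 fold change -4.56, SE 0.293, adjusted p = 1.82e-06 by limma). The antisense gene SLC12A5-AS1, itself lower (log2 fold change -2.57), shares 18.4% of the exonic bases of MMP9. In sh-METTL3 MMP9 rested on 4, 4 and 8 reads. Stromelysin-1, MMP3, had 156, 111 and 127 against 88.6, 52.8 and 49.3. The groups of MMP3 did not overlap, and its mean was 2.07-fold lower (log2 fold change -1.07, adjusted p = 0.00541 by limma). MMP19 had 87, 93.2 and 82.3 against 34.5, 28.4 and 34.7, a 2.69-fold lower mean (log2 fold change -1.40, adjusted p = 0.00026 by limma). MMP7, matrilysin, was lower at low read numbers, with 25, 31 and 25 reads in the controls and 14, 4 and 3 in sh-METTL3. The membrane-type genes MMP15, MMP16 and MMP17 had log2 fold changes of -0.33, -0.36 and -0.86. They passed in 13 of 15, 10 of 15 and 10 of 14 other fits, with adjusted p-values of up to 0.0917, 0.157 and 0.0835.

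The MMP genes that were higher were fewer and included another membrane-type enzyme. MMP24, a membrane-type MMP best known from neural tissue, held 392, 498 and 458 scaled counts in the controls and 2540, 2584 and 1572 in sh-METTL3. Its mean was 4.97-fold higher (log2 fold change 2.28, SE 0.171, adjusted p = 4.89e-06 by limma), with sh-METTL3 replicate 3 the lowest of its group and still above every control. MMP24OS, the gene on the opposite strand, had a log2 fold change of 0.40. It shares 799 exonic bases with MMP24, 18.1% of the exonic length of MMP24, and since strandedness is not given in the sources used here the reads of this stretch cannot be assigned to either gene. MMP28, epilysin, had 4, 3 and 2 reads in the controls and 21, 19 and 21 in sh-METTL3 (log2 fold change 2.70, adjusted p = 0.000164 by limma). MMP11, stromelysin-3, had a log2 fold change of 0.86 (limma, adjusted p = 0.007).

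TIMP2 and TIMP3, the inhibitors of these enzymes, both rose. TIMP2, which inhibits MMP14 and also bridges it to proMMP2, had 6999, 7388 and 7453 scaled counts in the controls and 10236, 9887 and 8431 in sh-METTL3. That was a 1.31-fold rise (log2 fold change 0.38, SE 0.0737, adjusted p = 0.00235 by limma), smallest in replicate 3. TIMP3, which is bound to matrix and inhibits ADAM as well as MMP enzymes, had 4466, 4558 and 4236 in the controls and 6729, 6820 and 7117 in sh-METTL3. Its rise was 1.56-fold (log2 fold change 0.64, SE 0.0517, adjusted p = 7.9e-06 by limma), and the sh-METTL3 libraries lay close together.

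A ratio between genes of the same library does not depend on the scaling of that library, so ratios of scaled counts were compared next. The ratio of MMP14 to TIMP2 was 5.65, 5.77 and 5.32 in the control libraries and 2.87, 2.84 and 2.67 in the sh-METTL3 libraries. The mean fell from 5.58 ± 0.234 to 2.79 ± 0.112 (SD, n = 3 each), with no overlap. MMP14 to TIMP3 fell from 9.19 ± 0.286 to 3.88 ± 0.641 (SD, n = 3 each), 2.37-fold. ADAM10 to TIMP3 fell from 1.08 ± 0.0797 to 0.619 ± 0.0342 (SD, n = 3 each). With 3 libraries against 3 an exact permutation test (two-sided) cannot go below p = 0.1, and each of these 3 ratios had that value (0.114 after Benjamini-Hochberg adjustment over the 8 ratios compared). MMP14 and ADAM10 were lower, and TIMP2 and TIMP3 higher, in every sh-METTL3 library than in any control. These 3 ratios therefore had to separate, and their p-values add no support beyond that of the single genes.

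**Figure D4:**
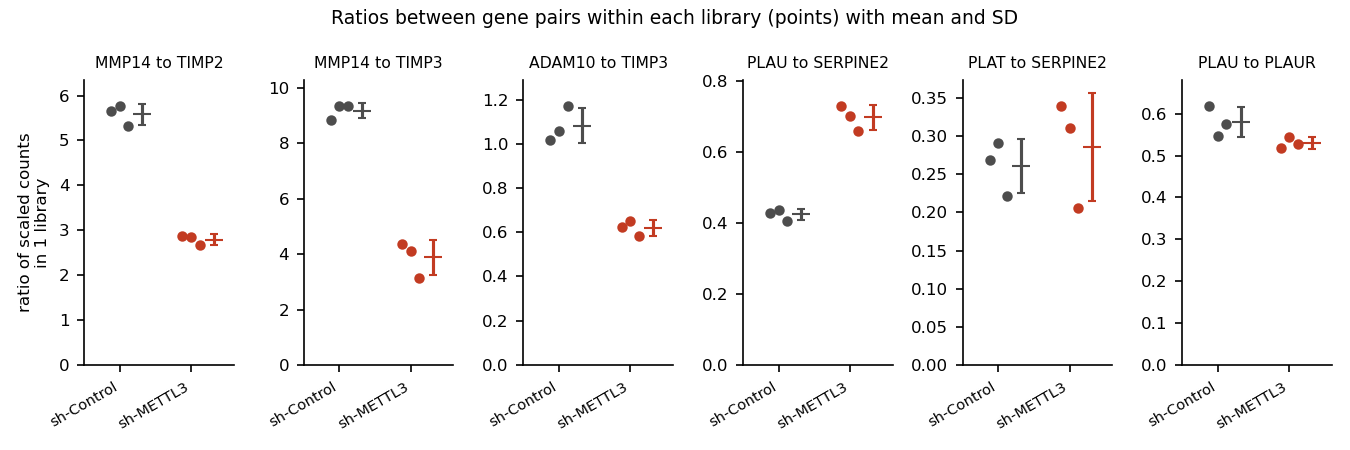
Ratio of scaled counts between 2 genes in each library (points, vertical axes start at 0), with mean and SD beside the points, for sh-Control (grey) and sh-METTL3 (red). The 3 ratios to a TIMP are lower in every sh-METTL3 library than in any control, PLAU to SERPINE2 is higher, PLAT to SERPINE2 overlaps between groups, and PLAU to PLAUR is close between groups.

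The ADAM family held both the largest rise of the set and a fall of more than 5-fold. ADAM23 (ENSG00000114948, chr2:206443539-206621130), a cell-surface member that lacks protease activity and binds integrins, had 29.5, 25 and 19.6 scaled counts in the controls and 351, 299 and 337 in sh-METTL3. The mean was 13.3-fold higher (log2 fold change 3.70, SE 0.185, adjusted p = 3.81e-07 by limma). ADAM8, a sheddase known from leukocytes and inflamed tissue, went the other way, from 311, 396 and 274 to 55, 49 and 64.9. Every sh-METTL3 library lay far below the controls, and the mean was 5.81-fold lower (log2 fold change -2.51, SE 0.176, adjusted p = 3.26e-06 by limma). ADAM12 and ADAM19 were lower by log2 fold changes of -0.62 and -0.44, and ADAM15 was higher by 0.21. ADAM19 passed in 14 and ADAM15 in 11 of 15 other fits. ADAM10, the alpha-secretase that sheds Notch and many receptors, moved least of all: 4545, 4820 and 4962 against 4193, 4441 and 4150, a log2 fold change of -0.16 (limma, adjusted p = 0.0398). It passed in 5 of 15 other fits, and its adjusted p reached 1 with RLE factors in edgeR.

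Most ADAMTS genes were lower, several of them 2-fold or more. These secreted enzymes cut proteoglycans such as versican and aggrecan (ADAMTS1, ADAMTS9 and ADAMTS15 among them), or, like ADAMTS13, von Willebrand factor. ADAMTS12 held 9040, 9293 and 9621 scaled counts in the controls and 3949, 4307 and 3387 in sh-METTL3 (log2 fold change -1.27, SE 0.0801, adjusted p = 1.6e-06 by limma). ADAMTS1 had 4403, 3933 and 3256 against 1174, 1110 and 1178 (log2 fold change -1.73, adjusted p = 6.66e-07 by limma). In ADAMTS1 the controls were the more scattered group, and the groups were far apart. ADAMTS6 had 2447, 2596 and 2727 against 913, 963 and 689 (log2 fold change -1.61, adjusted p = 2.95e-06 by limma). ADAMTS15 had 388, 352 and 334 against 77.4, 85.1 and 76.1, a 4.5-fold lower mean (log2 fold change -2.15, adjusted p = 1.03e-06 by limma). ADAMTS7 and ADAMTS9 both had a log2 fold change of -0.68. Only ADAMTS13 among the ADAMTS proteases was higher, at 0.53, and it passed in 12 of 15 other fits.

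The ADAMTS-like genes, which encode matrix proteins with the ancillary domains of ADAMTS but no protease domain, went in opposite directions. ADAMTSL1 had 1784, 2111 and 2000 scaled counts in the controls and 240, 246 and 374 in sh-METTL3. Its mean was 6.86-fold lower (log2 fold change -2.80, SE 0.152, adjusted p = 6.16e-07 by limma), with sh-METTL3 replicate 3 the highest of its group. ADAMTSL3 had a log2 fold change of 0.91 (SE 0.082, adjusted p = 1.67e-05 by limma).

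The activators PLAU and PLAT and the receptor PLAUR were all lower. PLAU, urokinase (ENSG00000122861, chr10:73909177-73917497), had 1524, 1410 and 1351 scaled counts in the controls and 735, 723 and 760 in sh-METTL3. The groups were separate and each was tight, and the mean was 1.93-fold lower (log2 fold change -0.95, SE 0.0659, adjusted p = 3.07e-06 by limma). C10orf55, which lies on the opposite strand, shares 31.1% of the exonic bases of PLAU. PLAUR, the receptor that holds urokinase at the cell surface, had 2463, 2578 and 2351 against 1419, 1326 and 1440 (log2 fold change -0.82, SE 0.0591, adjusted p = 3.8e-06 by limma). PLAT, tissue plasminogen activator, had 954, 938 and 736 against 341, 320 and 236. The third library was the lowest of both groups, and the mean was 2.93-fold lower (log2 fold change -1.55, SE 0.147, adjusted p = 2.25e-05 by limma).

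SERPINE2, protease nexin-1, which inhibits urokinase, plasmin and thrombin, fell further than urokinase. It had 3544, 3229 and 3318 scaled counts in the controls and 1006, 1027 and 1151 in sh-METTL3, a 3.17-fold lower mean (log2 fold change -1.66, SE 0.0667, adjusted p = 1.04e-07 by limma). Within libraries PLAU to SERPINE2 went from 0.425 ± 0.0156 to 0.698 ± 0.0356 (SD, n = 3 each), with no overlap and the smallest exact permutation p that the design allows, 0.1. PLAT to SERPINE2 was 0.26 ± 0.0352 and 0.285 ± 0.0708 (SD, n = 3 each), a difference within the spread of the libraries (exact permutation p = 0.6). PLAU to PLAUR was 0.58 ± 0.0361 and 0.53 ± 0.0137 (SD, n = 3 each), close to each other though without overlap. SERPINE3, a little-studied relative, had 7.18, 4.8 and 4.67 scaled counts against 98, 51.5 and 25.8, with the sh-METTL3 libraries far apart. Its log2 fold change was 3.0 (SE 0.444, adjusted p = 0.000447 by limma), and 30.3% of its exonic bases lie in exons of INTS6 on the opposite strand, whose log2 fold change was -0.30.

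The SERPINB genes, whose proteins mostly stay inside the cell, were all lower where listed. SERPINB2, plasminogen activator inhibitor 2 (ENSG00000197632, chr18:63871692-63903890), showed the largest fall of the 57 genes. Its scaled counts were 586, 544 and 481 in the controls and 18.7, 20.6 and 14.6 in sh-METTL3, a 29.9-fold lower mean (log2 fold change -4.84, SE 0.176, adjusted p = 5.68e-08 by limma). Of the exonic bases of SERPINB2, 19.9% lie in exons of SERPINB10, a neighbouring paralog on the same strand. SERPINB9, the inhibitor of granzyme B, had 268, 267 and 262 against 50.4, 60.6 and 54.9, 4.81-fold lower (log2 fold change -2.25, SE 0.14, adjusted p = 1.48e-06 by limma). SERPINB1, an inhibitor of neutrophil elastase, and SERPINB7 both had a log2 fold change of -0.83.

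Within the SERPINA cluster of chromosome 14 the genes went in opposite directions. SERPINA1, alpha-1 antitrypsin, had 847, 851 and 827 scaled counts in the controls and 255, 258 and 307 in sh-METTL3. The controls hardly varied, and the mean was 3.08-fold lower (log2 fold change -1.63, SE 0.0924, adjusted p = 8.38e-07 by limma). SERPINA9 and SERPINA5, the protein C inhibitor, lie in the same cluster and were higher, at log2 fold changes of 0.98 and 2.30. SERPINA9 passed in 12 of 14 other fits. SERPINA5 rested on 7, 4 and 6 reads in the controls and 27, 21 and 30 in sh-METTL3. SERPINI1, neuroserpin, the inhibitor of PLAT in brain, was higher as well, from 12, 7 and 11 reads to 62, 30 and 44 (log2 fold change 2.33, adjusted p = 0.000129 by limma).

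The Kunitz inhibitors split in the same manner. SPINT1 and SPINT2 encode the hepatocyte growth factor activator inhibitors, which restrain membrane-bound serine proteases of epithelia. SPINT1 (ENSG00000166145, chr15:40844018-40858207) had 85.4, 143 and 90.7 scaled counts in the controls and 11.2, 5.15 and 4.48 in sh-METTL3, a 15.3-fold lower mean (log2 fold change -3.81, SE 0.353, adjusted p = 1.93e-05 by limma). SPINT2 had 2652, 3005 and 2752 against 5039, 5095 and 5125, a 1.81-fold higher mean (log2 fold change 0.86, SE 0.0567, adjusted p = 2.13e-06 by limma). The ratio of SPINT2 to SPINT1 lay between 21 and 31.1 in the control libraries and between 450.1 and 1144 in sh-METTL3, where SPINT1 rested on 12, 4 and 4 reads. PRSS8, prostasin, an epithelial protease that these inhibitors restrain, was lower at 15, 12 and 12 reads against 2, 4 and 1 (log2 fold change -1.91, adjusted p = 0.00812 by limma). TFPI, the inhibitor of the tissue factor pathway of clotting, had 3385, 3528 and 3394 against 1741, 1715 and 1666 (log2 fold change -1.01, SE 0.0498, adjusted p = 3.51e-07 by limma). TFPI2, a matrix-bound relative, had 3624, 3279 and 3075 against 2078, 1997 and 2216 (log2 fold change -0.66, SE 0.0693, adjusted p = 4.44e-05 by limma). The ratio of TFPI to TFPI2 was 1.04 ± 0.091 and 0.816 ± 0.0566 (SD, n = 3 each).

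HTRA1, a secreted serine protease that cuts fibronectin and proteoglycans, was the most changed of the PRSS and HTRA genes that had over 100 scaled counts. It had 470, 496 and 484 in the controls and 1254, 1316 and 1376 in sh-METTL3, with little spread in either group. The mean was 2.72-fold higher (log2 fold change 1.44, SE 0.067, adjusted p = 2.37e-07 by limma). HTRA2, its mitochondrial relative, had a log2 fold change of -0.38 and shares exons with LOXL3 and AUP1 on the opposite strand. PRSS16 and PRSS53 had log2 fold changes of 0.91 and 0.47, and passed in 11 of 14 and 14 of 15 other fits. PRSS23 was higher by 0.48 (SE 0.0712, adjusted p = 0.000487 by limma), and 11.9% of the exonic bases of PRSS23 lie in exons of FZD4 on the other strand, whose log2 fold change was -0.36. CST3, cystatin C, an abundant secreted inhibitor of cathepsins, had 4462, 5419 and 4995 against 6633, 6474 and 7356, a 1.38-fold rise (log2 fold change 0.46, SE 0.0772, adjusted p = 0.000977 by limma). Among the DPP genes only DPP4 encodes a cell-surface enzyme, which trims incretins and chemokines. DPP4 had 3533, 3550 and 4033 against 2220, 2265 and 1747 (log2 fold change -0.84, SE 0.0974, adjusted p = 8.72e-05 by limma). The cytosolic DPP3 was lower by -0.41 on the log2 scale and the lysosomal DPP7 higher by 0.28.

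Position on the chromosome was described beside these values. For each gene the 10 nearest listed genes on either side, the 57 left out, were counted. Over the 57 genes the median share of lower neighbours was 55%, and over all listed genes 52.3% were lower. At least 75% of neighbours were lower around 11 of the 57 genes, and 9 of those 11 were lower themselves, beside 36 of all 57. For 26 of the 57 genes the median log2 fold change of the neighbours had the other sign than the gene. MMP3 and MMP7 of the MMP cluster on chromosome 11 had 19 lower genes among 20 neighbours, with a median log2 fold change of -0.77. ADAMTS15 had 18 of 20 and a median of -0.74, and DPP3 had 20 of 20 and a median of -0.62. PRSS23 on the same chromosome was higher although 17 of its 20 neighbours were lower. All 20 neighbours of SPINT1 were lower, with a median of -0.90 against -3.81 for SPINT1 itself. SERPINB2, MMP9, SERPINE2, ADAM8 and PLAU did not lie among mostly lower genes to this extent, with 50%, 65%, 50%, 30.8% and 40% of neighbours lower. The part that position had in any of these changes was not tested.

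**Figure D5:**
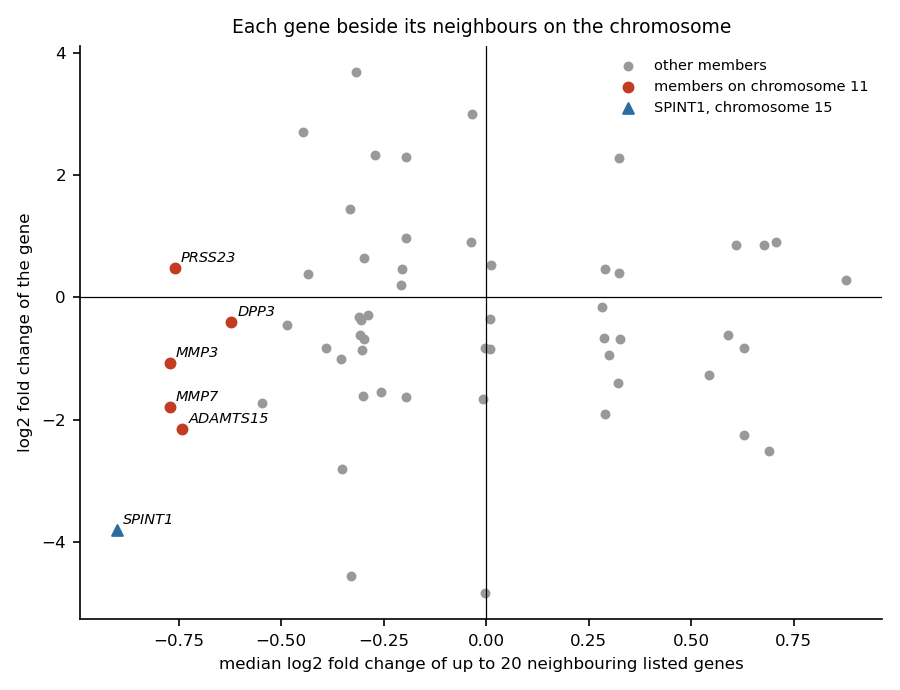
Median log2 fold change of up to 20 neighbouring listed genes (horizontal axis) against the log2 fold change of the gene itself (vertical axis), 1 point per gene. Members on chromosome 11 (red) and SPINT1 on chromosome 15 (blue triangle) lie at the left, where neighbours are lowest, and PRSS23 is the only one of them above 0.

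The promoters of the set were searched for the letters TGANTCA, with any base at N, a loose form of the AP-1 site. AP-1 stands for the FOS and JUN factors known to drive MMP and plasminogen activator genes. The strict site has C or G at N, so the counts below also hold forms outside it. The pattern reads the same on both strands. RefSeq promoters on GRCh38.p14, from 250 bases before the start to 50 after it, were matched by symbol for 44 of the 57 genes and not for ADAMTS1, ADAMTS9, ADAMTS15, MMP3, MMP9, MMP16, MMP17, MMP19, MMP28, PLAT, PRSS8, SPINT2 and TIMP2. The letters were found in 7 of the 44 promoters (15.9%), in 6 of 26 of lower genes and 1 of 18 of higher genes, against 7.76% of 27305 promoters. The windows shown are those of the 6 promoters in which the letters lie wholly before the start. They are 5 of genes that fell and that of SERPINE3, which rose, with 20 bases on each side and the searched letters in capitals. Those of PLAUR and MMP7 hold TGAGTCA, while SERPINB2, ADAMTS12 and TFPI2 hold TGAATCA and SERPINE3 holds TGATTCA, outside the strict site.
SERPINB2 (chr18:63887583-63887629, plus strand, 102 bases before the start): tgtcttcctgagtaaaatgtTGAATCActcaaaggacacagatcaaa
PLAUR (chr19:43670329-43670375, minus strand, 186 bases before the start): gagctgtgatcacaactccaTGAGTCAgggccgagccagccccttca
MMP7 (chr11:102530788-102530834, minus strand, 67 bases before the start): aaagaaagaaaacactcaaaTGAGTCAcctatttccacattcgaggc
ADAMTS12 (chr5:33892048-33892094, minus strand, 84 bases before the start): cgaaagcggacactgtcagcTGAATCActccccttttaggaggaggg
TFPI2 (chr7:93890814-93890860, minus strand, 87 bases before the start): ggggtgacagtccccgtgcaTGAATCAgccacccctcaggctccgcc
SERPINE3 (chr13:51339614-51339660, plus strand, 57 bases before the start): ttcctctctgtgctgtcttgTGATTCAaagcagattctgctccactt

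The seventh promoter was that of SPINT1, where the letters begin 6 bases before the start and run across it. The NF-κB consensus, searched on both strands, was found in 2 of the 44 promoters, those of SERPINB7 and TFPI2 (4.55%), against 5.72% of all promoters. In TFPI2 it lies 152 bases before the start, in chr7:93890876-93890925 on the minus strand, with the consensus in capitals.
TFPI2: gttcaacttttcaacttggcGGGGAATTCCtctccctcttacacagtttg

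The letters GGACT, the form of the m6A consensus that METTL3 is best known to methylate, were counted in the longest coding transcript of each gene. The median was 1.1 per kb over the 57 genes, 1.05 in the 21 higher and 1.14 in the 36 lower genes, and 0.936 over 6736 listed protein-coding genes, where the order was the other way (0.986 in higher and 0.902 in lower genes). SERPINB2, SERPINE2, SERPINE3 and SERPINA9 had none. A match of letters does not show methylation.

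Other genes of protease biology outside the set were counted from lists. Of 117 such genes 52 were listed, and 27 were higher and 21 lower with 4 not past the threshold. The share that passed was 92.3%, against 97.9% of all listed genes, and 43.8% of those that passed were lower, against 52.4%, so nothing is read from the counts of these lists. The 5 listed of 13 genes of clotting and protease-activated receptors were higher, beside 46.6% of all listed genes, among them F3, tissue factor, the trigger that TFPI inhibits, which went from 12994 ± 870 to 27057 ± 1677 (SD, n = 3 each, log2 fold change 1.06, adjusted p = 2.5e-06 by limma). THBD, thrombomodulin, had a log2 fold change of 1.31. Among 12 listed cathepsins and legumain, lysosomal enzymes most of which are cysteine proteases of the kind that cystatins restrain, 5 were higher and 6 lower. CTSH and CTSV were higher by log2 fold changes of 1.41 and 1.15, and CTSS was lower by -1.85. Of 6 listed plasmin partners 1 was higher, 2 were lower and 3 did not pass, and SORL1 had a log2 fold change of -1.08. Of 5 listed metallopeptidases of other families 4 were higher, MME by 1.04. Of 8 listed other inhibitors 4 were higher and 4 lower, with LXN at 1.38 and RECK, a membrane inhibitor of MMPs, at -0.55. Of 8 listed other serine proteases 3 were higher and 5 lower, with C1R at -1.21 and MASP2 at 1.24, and of 8 listed regulators of ADAM sheddases 5 were higher and 3 lower, with TSPAN10 at 1.28.

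MMP9, ADAM8, SERPINB2 and SERPINA1 are also expressed by myeloid cells, and fibroblasts express many ADAMTS genes, so markers of these cells were placed beside them. Of 7 leukocyte markers 3 were listed. ITGAM fell from 85.0 ± 10.0 to 9.85 ± 4.72 and CD14 from 25.3 ± 0.609 to 1.31 ± 1.41, with 0 in 1 sh-METTL3 library, whereas CSF1R rose from 79.9 ± 10.7 to 159 ± 19.4 (SD, n = 3 each). The sum of the 3 was between 170 and 211 scaled counts in the control libraries and between 157 and 187 in sh-METTL3, and PTPRC and CD68 were not in the table. All 4 listed of 8 fibroblast markers were lower, COL1A1 by -2.0, COL1A2 by -2.26, THY1 by -2.65 and PDGFRB by -0.63 on the log2 scale, and their sum was between 11364 and 13232 in the controls and between 4730 and 5383 in sh-METTL3. None of 5 endothelial markers was listed. All libraries were labelled as ARPE-19 cells, so these values are those of marker genes in cultures of that line. The part that such cell states had in the changes was not tested.

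The libraries of the METTL3-silenced group varied more than those of the controls over the set, with a median coefficient of variation of 11.1% against 6.93%. The sh-METTL3 libraries also held fewer reads on the listed genes (15004940, 10898434 and 12225530, against 17750052, 15115434 and 15338090), and 36 of the 57 genes were lower there. The part that counting noise at low read numbers had in this spread was not tested. The library farthest from the median of its group was sh-METTL3 replicate 3 for 31 of the 57 genes, against 11 and 15 for replicates 1 and 2. Without it 55 of the 57 genes passed the threshold by limma, 34 lower and 21 higher. Reads on the 57 genes made up between 1.12% and 1.16% of the scaled counts of all listed genes in the control libraries and between 1% and 1.04% in the sh-METTL3 libraries. MMP14 alone held between 24.5% and 25.3% of the scaled counts of the set in the controls and between 16.4% and 20.3% in sh-METTL3, and PRSS23 between 11.1% and 12.2% and between 17.4% and 20.5%.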

How the data were processed

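RNA sequencing of 3 sh-METTL3 and 3 sh-Control libraries was analysed from the deposited gene table. In its library columns the authors deposited a signal, the read count of a gene divided by a size factor, for 7758 genes. All values came out as whole reads (within 0.01) at the step that a single read is worth in each library. The submitters' processing notes name HISAT2 2.0.5 and hg38, while Cufflinks and single-end reads are named in the methods of the study. The counting tool and strandedness are not given in the sources used here. All genes have the start, end and exonic length of GENCODE release 29. The authors also deposited group means, a log2 fold change and p-values before and after adjustment. These were not used, except that no adjusted p-value exceeds 0.05, and that the adjustment was over 22977 genes, of which 33.8% are listed.

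log2(scaled count + 1) of all listed genes was fitted without covariates by limma 3.58.1 (R 4.3.3, variance trend on intensity), with Benjamini-Hochberg adjustment over 22977 tests. Reported in full were genes past 0.05 with an absolute log2 fold change of at least 1 and a mean of at least 50 in a group, and a fixed list of well-known members. Other members were named where their family was described. The members, lists and rules were chosen with earlier results of these data known, and the searches for NF-κB and GGACT letters were added after the values were seen. Proteins were not searched for the zinc-binding motif, as no protein table was used here. Alternatives were edgeR 4.0.16 with 3 kinds of scaling, DESeq2 1.42.0, another pseudocount, a filter on low values, no trend, a replicate block, other thresholds and leaving out each library. On simulated data with 7758 genes, adjusted over those genes alone, limma found 92% of 200 genes given a log2 change of 1 and called 23 unchanged genes. The real fit was adjusted over 22977 tests and covers preselected genes, so these rates do not carry over to its calls.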

Additional observations from a re-analysis of the deposited data

How the results depend on the processing

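The table holds only genes selected on these libraries, so the alternatives bound the values and do not test the selection. Asking also for a doubling or halving left 25 genes of the set (18 lower, 7 higher) and 2369 listed genes, against 57 (36 lower, 21 higher) and 7597. In the other alternatives the counts stayed within 1.5 times of these. They ran from 51 to 55 genes of the set (33 to 34 lower, 18 to 21 higher) and from 6541 to 7290 listed genes when 1 library was left out, and RLE factors in edgeR gave 52 genes, 31 lower and 21 higher. RLE factors moved the median log2 fold change of all listed genes by 0.124, and no gene of the set changed sign in any of 15 other fits. In 46 of the 57 genes every fit that gave a value passed. The 11 others were ADAM10 (5 of 15 fits), PRSS12 (8), MMP16 (10), MMP17 (10 of 14), ADAM15 (11), PRSS16 (11 of 14), ADAMTS13 (12), SERPINA9 (12 of 14), MMP15 (13), ADAM19 (14) and PRSS53 (14). The cause was not tested.

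A replicate block left 56 genes of the set past the threshold, 35 lower and 21 higher, and ADAM10 had an adjusted p of 0.0567 by limma. Libraries with the same number did not deviate together (correlations of 0.00361, 0.0193 and -0.015), and no pairing was assumed. The total depth of the libraries is unknown, which leaves no limit of detection for genes outside the table.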
